A study of Homo sapiens with 12 samples.

Results

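The 60 genes described here act in the G2 phase of the cell cycle and in mitosis, and they were taken by gene symbol from a list of such genes. The choice is by name and not by a measured level, but the list was drawn up with earlier results of these data known, so its counts are no independent evidence of a direction. All 60 were listed in the comparison tables of SAHA and of compound 1, and 59 were listed in that of a6, where NUSAP1 had no row. The table of SAHA held 18534 genes, that of compound 1 held 27126 and that of a6 held 15255, with 27146 genes in any of them. RNA was sequenced from MDA-MB-231 cells, a triple-negative line made from a human breast cancer, after 48 h in 2.5 µM SAHA, 2.5 µM compound 1, 2.5 µM a6 or the vehicle DMSO (Ctrl). There were 3 libraries for every one of the 4 groups, 12 in all, and the groups shared the line, its medium and the time of harvest. SAHA is vorinostat, a hydroxamic acid that inhibits zinc-dependent histone deacetylases. The labels describe SAHA and compound 1 as compounds with a single target and a6 as one that acts on both histone deacetylases and G-quadruplexes, the stacked guanine structures of G-rich nucleic acid; which single target compound 1 has is not spelled out in them. The libraries are called biological replicates with nothing further on separate cultures, so the p-values measure the spread between these libraries, which may be partly technical.

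G2 and mitosis genes are transcribed late in the cell cycle, and their mRNA peaks as cells enter mitosis. In proliferating cells MYBL2 (B-MYB) and then FOXM1 join the MuvB core complex at these genes to activate them, and in resting cells the DREAM complex, built on the same core, represses them. DREAM and MuvB reach many of these promoters through the cell cycle genes homology region (CHR), often with CCAAT boxes upstream that bind NF-Y. Cyclin B with CDK1 starts mitosis, the Aurora and Polo-like kinases build the spindle, the spindle checkpoint holds anaphase until every kinetochore is attached, and CDC20 with the anaphase-promoting complex then releases separase to cut cohesin. HDAC inhibitors are known to raise the CDK inhibitor p21 (CDKN1A) and to stop many tumour lines in G1 or G2.

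The files give 1 line per gene and comparison, with the mean normalized read count over the 6 libraries compared, the log2 fold change over Ctrl, its standard error (SE), and the p-values of DESeq2's Wald test. Levels per group were derived from that mean and the fold change, so they are group means with the error carried by the SE of the fold change; values of single libraries were not analysed here and depth per library is unknown. The Ctrl level of a gene differed between the tables by a nearly constant factor, with an SD over genes of 0.00133 to 0.00343 on the log2 scale, and the 3 comparisons are therefore taken to share their Ctrl libraries. The 8 markers for MDA-MB-231 were all listed in the SAHA table of the authors, at mean counts of 35.3 for SPARC to 19134 for VIM, and summed to 56770 normalized counts with SAHA and 63567 in Ctrl. Of 6 markers that are known to be low or absent in this line, ESR1, PGR and KRT5 had a row in the compound 1 table alone, each at a mean count under 0.5. The other 3 were present in the SAHA table, with mean counts of 1715 for ERBB2, 141 for EPCAM and 9.28 for CDH1, and summed to 1450 normalized counts with SAHA and 2280 in Ctrl without passing the test. Of 10 markers of other cell types, 4 (PTPRC, CD3E, DCN and ALB) had no row in any table. The 6 listed in the SAHA table summed to 489 normalized counts with SAHA and 319.8 in Ctrl. Of these 6, 3 rose (50%, against 4.53% of all genes called higher): CD14, VWF and LUM, at mean counts of 63.8, 12.2 and 24.9. The log2 fold changes of the 6 ran from -0.71 to 7.03, with a median of 1.49. Their part in the results below was not tested.

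With SAHA the transcripts of this program were lower than in Ctrl. All 60 genes had a lower mean with SAHA than in Ctrl, as did 50.7% of all genes in the table, and 32 of them fell at an adjusted p under 0.05 by DESeq2's Wald test in the authors' deposited table, while 0 rose. The 32 make up 53.3% of the set, against a background of 3.02% of all 18534 genes called lower and 4.53% called higher in that table. The median log2 fold change was -0.96 over the 60 genes, against -0.01 over all genes of the table, and the values ran from -1.75 for CENPE to -0.42 for BUB1. Among genes averaging 50 counts or more, 57 of the set had a median of -0.96, and 3.68% of the 12066 other genes lay at or below that value. Compound 1 and a6, at the same dose and time, gave 0 of 60 and 0 of 59 genes past the test in either direction, with medians of -0.01 and -0.06. Few genes passed anywhere in those tables, 0% of all 27126 genes with compound 1 and 0.583% of all 15255 with a6, so the counts of 0 do not set the genes apart from the rest. In bulk RNA, fewer cells in G2 and mitosis and less RNA of these genes per cell cannot be told apart.

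**Figure D1:**
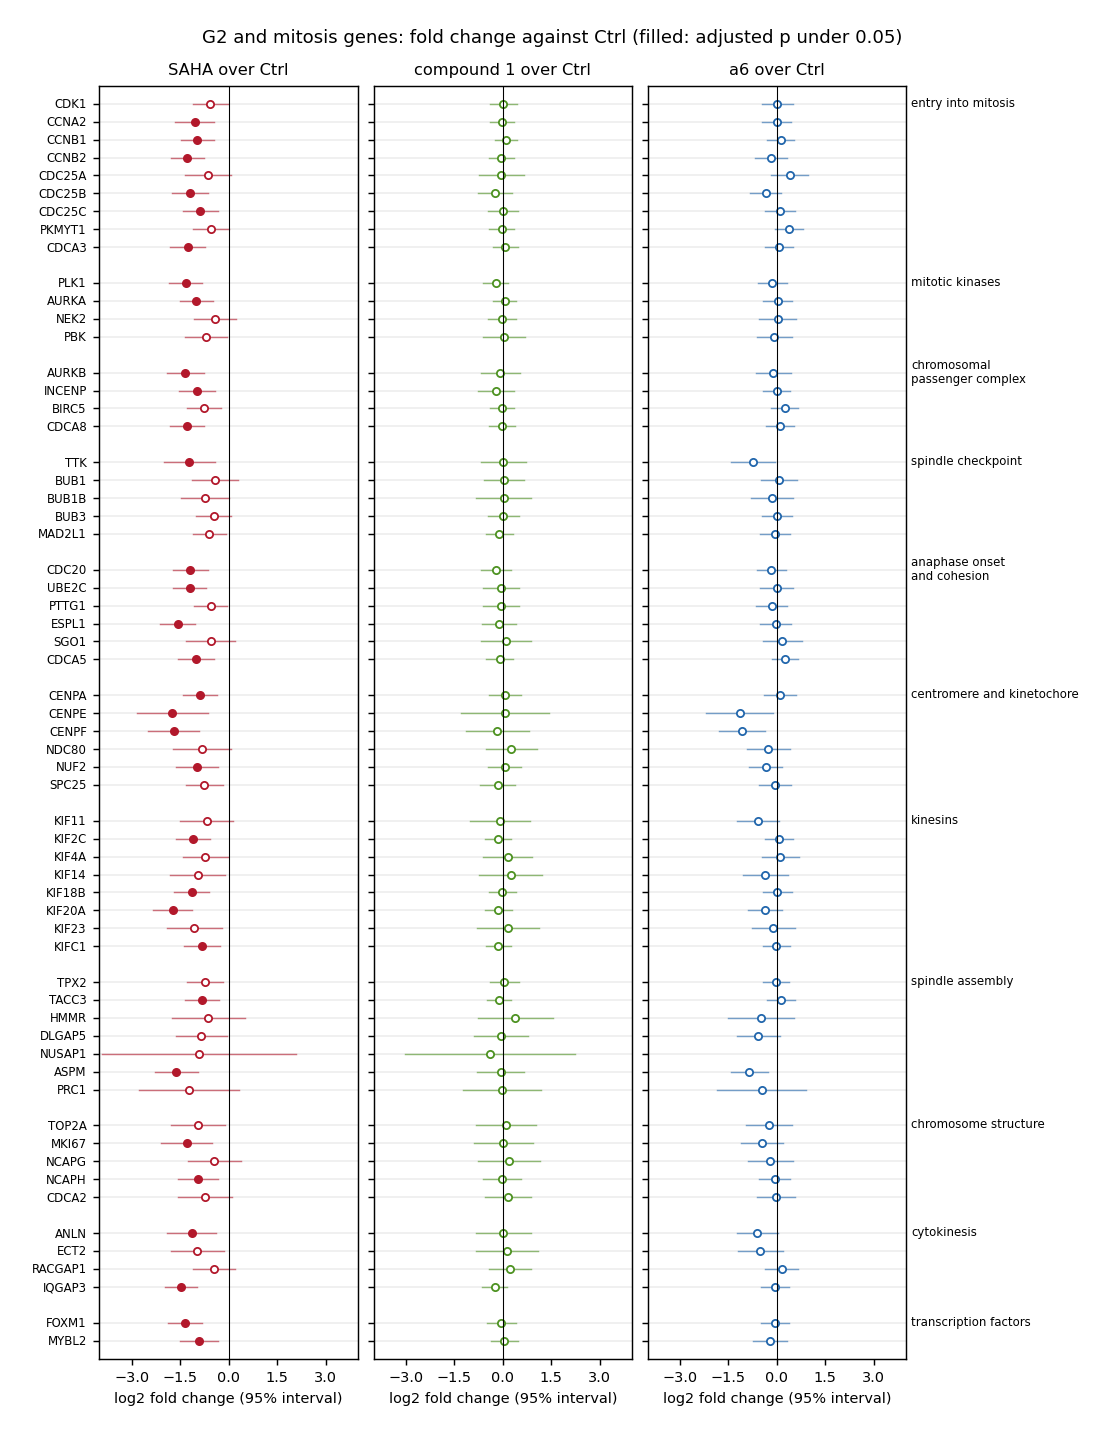
Log2 fold change over Ctrl (x axis, with 95% intervals from the deposited standard errors) of the 60 G2 and mitosis genes, grouped by role, with SAHA on the left, compound 1 in the middle and a6 on the right. Filled points passed an adjusted p of 0.05: 32 genes do so with SAHA, all to the left of 0, and none with compound 1 or a6, where most points sit near 0 and CENPE and CENPF lie lowest with a6.

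**Figure D2:**
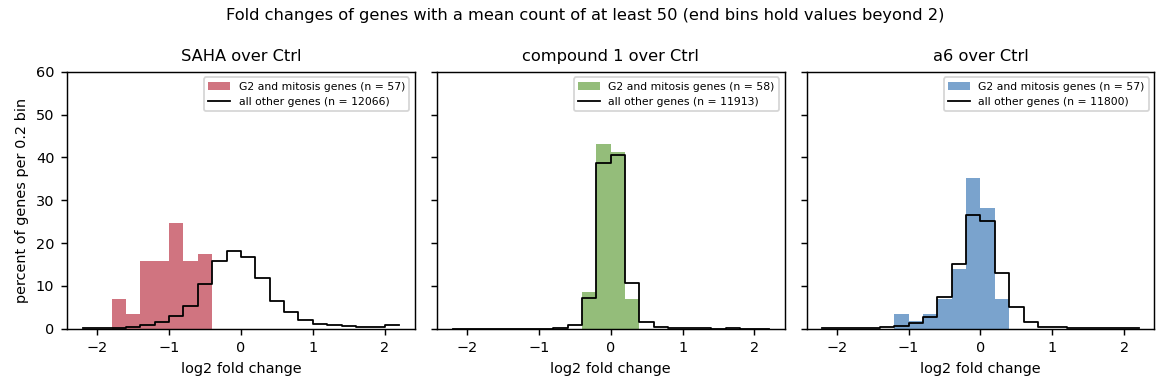
Share of genes (y axis, percent) per bin of log2 fold change (x axis) among genes averaging 50 counts or more, for the G2 and mitosis genes (bars) and all other genes (line), 1 panel per compound. With SAHA the whole set of 57 lies left of the peak of the other 12066 genes, and with compound 1 and a6 the bars lie over the peak of the line.

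The genes differed in the size of the estimate and in its precision. The 32 genes that fell had log2 fold changes from -0.81 (TACC3) to -1.75 (CENPE), with a median of -1.19 and a median SE of 0.28. The 28 that did not pass ran from -0.42 to -1.23, with a median of -0.71 and a median SE of 0.37, so they combined smaller estimates with wider errors. A fall of at least 2-fold was estimated for 25 of the 60 genes, against 5.77% of all genes in the authors' deposited table. Unadjusted p-values under 0.05 were found for 45 of the 60, against 18.4% of all genes in either direction. The 95% interval of the fold change reached a 2-fold fall in all 60 genes. The count of genes that fell was 19 at an adjusted p under 0.01, where 1.63% of all genes were called lower. It was 0, with 0.0755% of all genes called lower, when the statistic was divided by its own spread of 1.68. That spread is the SD over genes averaging 50 counts or more. The choice was made after seeing the data and also takes in the genes SAHA changed. Centring on the median of all genes ended the calls of TTK, NUF2, KIFC1, TACC3, NCAPH, ANLN and MYBL2, and removing a GC trend ended those of INCENP, KIFC1, TACC3 and MYBL2.

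Promoter sequence was available in RefSeq's table for 49 of the 60 genes (build GRCh38.p14, 250 bases before to 50 after the annotated start). The 6 promoters printed here belong to the genes with the smallest SAHA adjusted p among those 49, and show which late cell cycle elements stand at the starts of the genes that fell most clearly: IQGAP3 (chr1:156572536-156572715, minus strand), ESPL1 (chr12:53268149-53268328, plus strand), KIF20A (chr5:138178962-138179141, plus strand), PLK1 (chr16:23678739-23678918, plus strand), CDCA8 (chr1:37692366-37692545, plus strand) and CCNB2 (chr15:59104996-59105175, plus strand). Each runs 5′ to 3′ on the gene's own strand from 150 bases before to 30 bases after the start. Capitals mark a CHR (the letters TTTGAA or the letters TTCGAA), the CCAAT box or an E2F motif (the letters TTGGCGC, or the letters TTCCCGC, or the letters TTGCCGC, or the letters TTCGCGC), each on either strand, so that a CHR may also read TTCAAA while the CCAAT box may also read ATTGG. None of the 6 windows holds an E2F motif.
IQGAP3: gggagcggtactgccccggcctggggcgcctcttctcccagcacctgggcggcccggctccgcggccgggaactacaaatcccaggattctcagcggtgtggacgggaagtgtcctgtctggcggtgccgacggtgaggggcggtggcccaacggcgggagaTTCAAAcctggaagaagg
ESPL1: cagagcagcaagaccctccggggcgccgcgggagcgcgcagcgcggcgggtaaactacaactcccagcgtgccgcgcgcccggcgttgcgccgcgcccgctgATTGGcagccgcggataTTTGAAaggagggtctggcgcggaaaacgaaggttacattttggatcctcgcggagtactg
KIF20A: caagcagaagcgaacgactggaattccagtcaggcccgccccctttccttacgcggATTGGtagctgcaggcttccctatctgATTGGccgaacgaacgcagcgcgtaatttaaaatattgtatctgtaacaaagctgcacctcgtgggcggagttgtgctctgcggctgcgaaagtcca
PLK1: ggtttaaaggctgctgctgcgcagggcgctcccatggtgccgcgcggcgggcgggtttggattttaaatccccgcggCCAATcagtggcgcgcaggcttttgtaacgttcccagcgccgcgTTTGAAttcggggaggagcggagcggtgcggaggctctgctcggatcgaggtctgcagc
CDCA8: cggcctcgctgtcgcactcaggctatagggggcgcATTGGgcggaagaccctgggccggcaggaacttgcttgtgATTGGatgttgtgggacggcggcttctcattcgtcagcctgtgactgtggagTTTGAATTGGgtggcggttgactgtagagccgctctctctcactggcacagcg
CCNB2: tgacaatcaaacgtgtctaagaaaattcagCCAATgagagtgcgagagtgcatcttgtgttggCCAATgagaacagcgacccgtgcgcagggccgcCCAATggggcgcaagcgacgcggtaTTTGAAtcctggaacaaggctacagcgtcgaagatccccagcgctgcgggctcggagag
ESPL1, PLK1, CDCA8 and CCNB2 each hold 1 CHR downstream of at least 1 CCAAT box, IQGAP3 holds a CHR on the other strand after the start and no CCAAT box, and KIF20A holds 2 CCAAT boxes and no CHR. In CDCA8 the CHR overlaps the last of 3 CCAAT boxes, 1 of 2 such overlaps in the 49 promoters.

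A CHR was found in 35 of the 49 promoters (71.4%), against 16.6% of all 27305 promoters in the table and 11.2% of the 11684 promoters of genes listed in the SAHA table. A CCAAT box was found in 36 (73.5%), against 35.7% of all and 36.1% of those in the SAHA table. Both stood together in 28 (57.1%), against 6.58% and 4.72%. E2F motifs were found in 18 (36.7%), against 13.1% of all promoters and 19.9% of those in the SAHA table. A G-quadruplex motif (4 runs of at least 3 G with loops of 1 to 7 bases, either strand) was found in 11 (22.4%), against 24.1% of all and 33.9% of those in the SAHA table. CHR matches lay close to the start, at a median position of -23, with 33 of 45 between -60 and 30. CCAAT boxes lay upstream at a median of -68, with 53 of 74 between -120 and -30. CCAAT boxes and E2F motifs overlapped at 1 place, and CHR matches overlapped no E2F motif. The median SAHA log2 fold changes lay close together, at -0.97 in the 35 genes with a CHR and -0.95 in the 14 without one. The calls were less alike, as 17 of the 35 fell and 11 of the 14. For the CCAAT box the medians were -0.96 with it and -0.99 without it, and 18 of 36 genes fell against 10 of 13. For E2F motifs the medians were -0.90 with one and -1.05 without one, and 10 of 18 genes fell against 18 of 31. For the G-quadruplex motif the medians were -1.01 with it and -0.96 without it, and 8 of 11 genes fell against 20 of 38. Over all genes 3.02% were called lower with SAHA, and these differences in calls were not tested. A match describes the letters in the window, and a gene without one, such as CENPE or KIF2C, only lacks these letters between 250 bases before and 50 after its start.

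**Figure D3:**
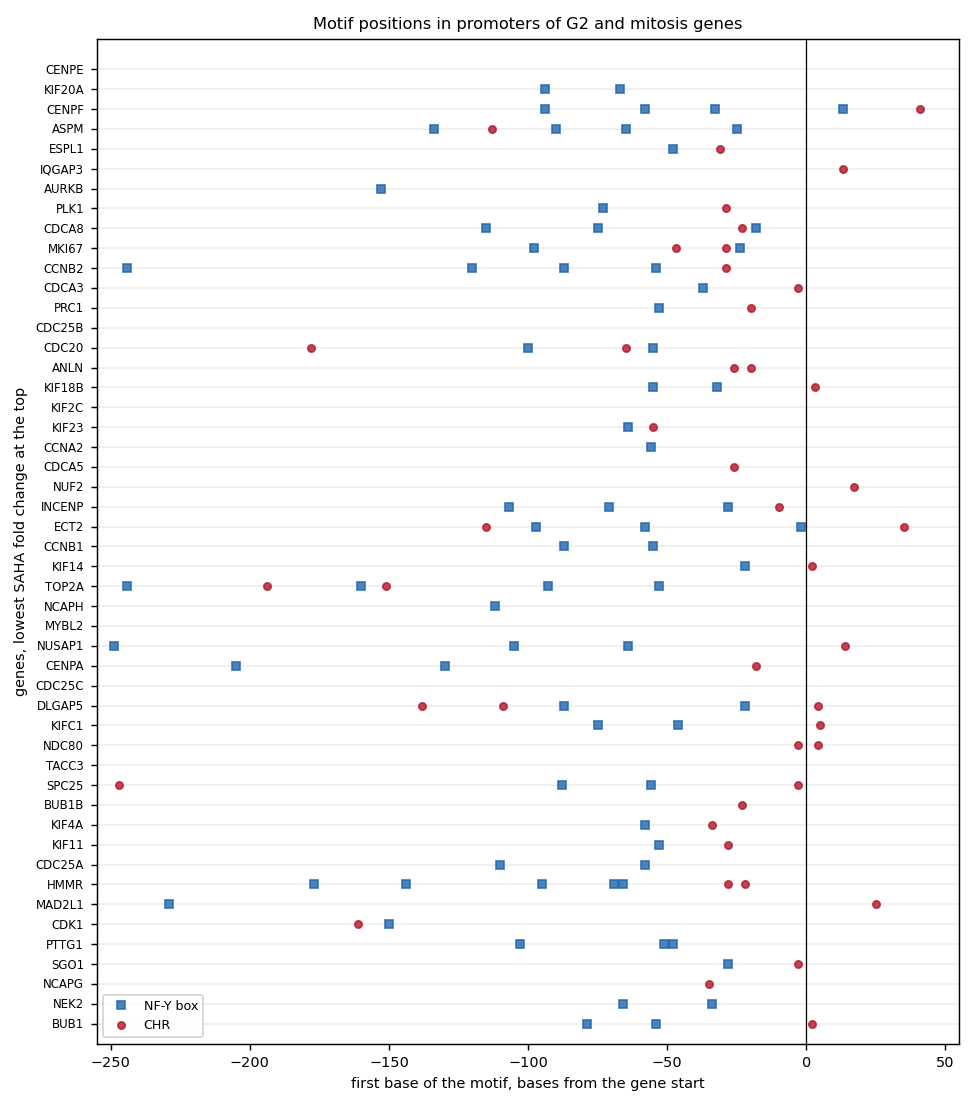
Position of each CCAAT box (squares) and CHR (circles) relative to the annotated gene start (x axis, bases; start at 0) in the 49 promoters, 1 gene per row with the lowest SAHA fold change at the top. Squares gather around -68 and circles around -23, from the top of the list to the bottom.

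Of the 9 genes that govern entry into mitosis, 6 fell with SAHA (66.7%, against 3.02% of all genes called lower). CCNB2, a B-type cyclin, averaged 430.3 normalized counts with SAHA and 1045 in Ctrl (log2 fold change -1.28, SE 0.26, adjusted p = 7.58e-05 in the authors' deposited table). CCNB1, the main mitotic cyclin, averaged 1777 with SAHA and 3478 in Ctrl, from the authors' deposited table (log2 fold change -0.97, SE 0.26, adjusted p = 0.00505). CCNA2, the cyclin of S phase and G2, averaged 805 with SAHA and 1669.9 in Ctrl, from the authors' deposited table (log2 fold change -1.05, SE 0.31, adjusted p = 0.0127). All 3 cyclins were thus lower by close to a factor of 2 or more. Their partner CDK1, the kinase that starts mitosis, averaged 739 with SAHA and 1099 in Ctrl, from the authors' deposited table, without passing (log2 fold change -0.57, SE 0.28, adjusted p = 0.239). Among the phosphatases that activate CDK1, CDC25B averaged 1214 with SAHA and 2779 in Ctrl, from the authors' deposited table (log2 fold change -1.20, SE 0.28, adjusted p = 0.00113). CDC25C averaged 242 with SAHA and 445 in Ctrl, from the authors' deposited table (log2 fold change -0.88, SE 0.27, adjusted p = 0.0234). CDC25A, which acts mostly at the G1/S transition, averaged 410.0 with SAHA and 639 in Ctrl, from the authors' deposited table, without passing (adjusted p = 0.348). CDCA3, which helps degrade the CDK1 inhibitor WEE1, fell as CDC25B did, to 368 with SAHA against 886 in Ctrl, from the authors' deposited table (log2 fold change -1.27, SE 0.27, adjusted p = 0.000226). PKMYT1, a kinase that holds CDK1 inactive, had a log2 fold change of -0.55 in the authors' deposited table, without passing (adjusted p = 0.286). With compound 1 the 9 log2 fold changes lay between -0.24 and 0.10, and with a6 between -0.34 and 0.40, in the authors' deposited tables.

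Among 4 mitotic kinases, the pair that fell with SAHA was PLK1 and AURKA (50%, against 3.02% of all genes called lower). PLK1, the Polo-like kinase that drives centrosome maturation and mitotic entry, averaged 1212 normalized counts with SAHA and 3048 in Ctrl (log2 fold change -1.33, SE 0.26, adjusted p = 1.96e-05 in the authors' deposited table). AURKA, which matures the centrosomes, averaged 1425 with SAHA and 2868 in Ctrl, from the authors' deposited table (log2 fold change -1.01, SE 0.26, adjusted p = 0.00340). NEK2, a kinase that separates the centrosomes, and PBK, a kinase abundant in mitotic cells, had log2 fold changes of -0.44 and -0.71 in the authors' deposited table, without passing (adjusted p-values 0.545 and 0.216). PLK1 averaged 2704 with a6 and 2979 in Ctrl, from the authors' deposited table (log2 fold change -0.14, SE 0.23, adjusted p = 0.991). It averaged 2613 with compound 1 and 3041 in Ctrl, from the authors' deposited table (log2 fold change -0.22, SE 0.19, adjusted p = 1.00). Neither value of PLK1 passed the test, and those of AURKA were closer still, at 0.05 with compound 1 and 0.03 with a6.

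The chromosomal passenger complex corrects faulty attachments of kinetochores to the spindle. With SAHA 3 of its 4 genes fell (75%, against 3.02% of all genes called lower). AURKB, its kinase, averaged 776 normalized counts with SAHA and 1963 in Ctrl (log2 fold change -1.34, SE 0.28, adjusted p = 0.000168 in the authors' deposited table). CDCA8 (borealin), a targeting subunit, averaged 678 with SAHA and 1664 in Ctrl, from the authors' deposited table (log2 fold change -1.30, SE 0.27, adjusted p = 7.57e-05). INCENP, the scaffold, averaged 883 with SAHA and 1739 in Ctrl, from the authors' deposited table (log2 fold change -0.98, SE 0.28, adjusted p = 0.0110). BIRC5 (survivin), the other targeting subunit, averaged 1668 with SAHA and 2835 in Ctrl, from the authors' deposited table and missed the threshold (log2 fold change -0.76, SE 0.27, adjusted p = 0.0641). The 4 subunits had log2 fold changes of -0.22 to -0.02 with compound 1 and -0.11 to 0.24 with a6.

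The spindle checkpoint genes had the smallest median difference with SAHA among the roles of the set, at a log2 fold change of -0.60. Their median SE was 0.36, and the ranking of roles was not tested. Of the 5, 1 was called (20%, against 3.02% of all genes called lower), which is 1 called gene from the share over all genes. TTK (MPS1), the kinase that starts the checkpoint signal, averaged 105 normalized counts with SAHA and 245 in Ctrl (log2 fold change -1.22, SE 0.41, adjusted p = 0.0387 in the authors' deposited table). BUB1B (BUBR1) and MAD2L1, 2 of the proteins that inhibit CDC20, had log2 fold changes of -0.74 and -0.60 in the authors' deposited table (adjusted p-values 0.281 and 0.170). BUB3 and BUB1, which carry the checkpoint proteins to the kinetochore, had -0.47 and -0.42 in the authors' deposited table (adjusted p-values 0.390 and 0.618). BUB1 was at 1101 with SAHA and 1475 in Ctrl, the smallest difference of the 60 genes in the authors' deposited table. TTK was also the lowest of the 5 in the a6 comparison, at 143 with a6 and 240.1 in Ctrl, from the authors' deposited table, where it did not pass (log2 fold change -0.75, SE 0.35, adjusted p = 0.589).

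Of 6 genes of anaphase onset and cohesion, 4 fell with SAHA (66.7%, against 3.02% of all genes called lower). ESPL1, the separase that cuts cohesin, averaged 410.2 normalized counts with SAHA and 1225 in Ctrl (log2 fold change -1.58, SE 0.28, adjusted p = 1.98e-06 in the authors' deposited table). CDC20, the activator of the anaphase-promoting complex and, per kilobase of transcript, the most abundant of the 60 in Ctrl, averaged 2738 with SAHA and 6236 in Ctrl, from the authors' deposited table (log2 fold change -1.19, SE 0.28, adjusted p = 0.00107). UBE2C, the ubiquitin-conjugating enzyme of that complex, averaged 1375 with SAHA and 3166 in Ctrl, from the authors' deposited table (log2 fold change -1.20, SE 0.26, adjusted p = 0.000214). These 3 genes drive the same step, and all were more than 2-fold lower. CDCA5 (sororin), which protects cohesin, averaged 1312 with SAHA and 2643 in Ctrl, from the authors' deposited table (log2 fold change -1.01, SE 0.29, adjusted p = 0.00977). PTTG1 (securin), the inhibitor of separase, averaged 1245 with SAHA and 1839 in Ctrl, from the authors' deposited table, without passing (adjusted p = 0.20). SGO1 (shugoshin), which guards cohesin at centromeres, was a low-count gene at 98.0 with SAHA and 144 in Ctrl, from the authors' deposited table (adjusted p = 0.499). ESPL1 had 1124 with compound 1 and 1223 in Ctrl, from the authors' deposited table (log2 fold change -0.12, SE 0.27, adjusted p = 1.00). It had 1170.1 with a6 and 1199 in Ctrl, from the authors' deposited table (log2 fold change -0.03, SE 0.24, adjusted p = 0.997). Neither passed, and the estimates of ESPL1 with both compounds were smaller than their SE.

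At the centromere and kinetochore, 4 of 6 genes fell with SAHA (66.7%, against 3.02% of all genes called lower). Among them was the gene with the lowest fold change of the set. CENPE, a kinesin that moves chromosomes to the spindle equator, averaged 43.8 normalized counts with SAHA and 147 in Ctrl (log2 fold change -1.75, SE 0.56, adjusted p = 0.0286 in the authors' deposited table). CENPF, a protein of the outer kinetochore, averaged 287 with SAHA and 932 in Ctrl, from the authors' deposited table (log2 fold change -1.70, SE 0.40, adjusted p = 0.00110). CENPA, the histone H3 variant that marks centromeres, averaged 300.2 with SAHA and 556 in Ctrl, from the authors' deposited table (log2 fold change -0.89, SE 0.27, adjusted p = 0.0211). CENPE was both the lowest of the 6 in count and the one with the widest error. NUF2, a subunit of the NDC80 complex that grips microtubules, averaged 178 with SAHA and 353 in Ctrl, from the authors' deposited table (log2 fold change -0.99, SE 0.33, adjusted p = 0.0414). Its partners NDC80 and SPC25 had log2 fold changes of -0.82 and -0.76 in the authors' deposited table, without passing (adjusted p-values 0.342 and 0.0941). CENPE and CENPF were also the 2 lowest genes with a6. CENPE averaged 65.4 with a6 and 145 in Ctrl, from the authors' deposited table (log2 fold change -1.15, SE 0.53, adjusted p = 0.571). CENPF averaged 433 with a6 and 914 in Ctrl, from the authors' deposited table (log2 fold change -1.08, SE 0.36, adjusted p = 0.186). Both missed the threshold with a6, and with compound 1 their log2 fold changes were 0.08 and -0.17 in the authors' deposited table.

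Of 8 mitotic kinesins, 4 fell with SAHA (50%, against 3.02% of all genes called lower). KIF20A, a kinesin of the central spindle, averaged 549 normalized counts with SAHA and 1831 in Ctrl (log2 fold change -1.74, SE 0.31, adjusted p = 2.62e-06 in the authors' deposited table). KIF18B, which controls the length of astral microtubules, averaged 803 with SAHA and 1782 in Ctrl, from the authors' deposited table (log2 fold change -1.15, SE 0.28, adjusted p = 0.00135). KIF2C (MCAK), which takes microtubules apart at centromeres, averaged 1354 with SAHA and 2922 in Ctrl, from the authors' deposited table (log2 fold change -1.11, SE 0.26, adjusted p = 0.00114). KIFC1, a minus-end motor that clusters extra centrosomes, averaged 1697 with SAHA and 3001 in Ctrl, from the authors' deposited table (log2 fold change -0.82, SE 0.28, adjusted p = 0.0487). The fall of KIF20A was the largest of the 8, and that of KIFC1 the smallest that passed. KIF23, part of centralspindlin, was 2.08-fold lower in the authors' deposited table but with an SE of 0.43 did not pass (adjusted p = 0.122). KIF14, KIF4A and KIF11, which act in cytokinesis, chromosome arm movement and spindle pole separation, had log2 fold changes of -0.96, -0.72 and -0.69 in the authors' deposited table, without passing. With compound 1 the 8 genes ran from -0.14 to 0.24 and with a6 from -0.58 to 0.11, KIF11 being the lowest with a6.

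In the spindle assembly group 2 of 7 genes fell with SAHA (28.6%, against 3.02% of all genes called lower). ASPM, which focuses microtubules at the spindle poles, averaged 151 normalized counts with SAHA and 463 in Ctrl (log2 fold change -1.62, SE 0.34, adjusted p = 0.000141 in the authors' deposited table). TACC3, which links kinetochore fibres, averaged 2379 with SAHA and 4179 in Ctrl, from the authors' deposited table (log2 fold change -0.81, SE 0.27, adjusted p = 0.0368). TPX2, the activator of AURKA, averaged 2592 with SAHA and 4274 in Ctrl, from the authors' deposited table, without passing (log2 fold change -0.72, SE 0.28, adjusted p = 0.108). DLGAP5 (HURP) and HMMR, which stabilise spindle microtubules, had log2 fold changes of -0.84 and -0.63 in the authors' deposited table, without passing (adjusted p-values 0.234 and 0.646). PRC1, which bundles microtubules of the central spindle, and NUSAP1, which bundles them near chromosomes, were counted at only 6.35 with SAHA and 14.9 in Ctrl, and at 2.34 with SAHA and 4.38 in Ctrl, in the authors' deposited table. These 2 are among the 3 genes of the set below a mean count of 50 in the SAHA table. According to GENCODE release 29, 57.6% of the exonic bases of PRC1 and 62.2% of those of NUSAP1 also belong to another annotated gene on the same strand, and neither of these 2 partner genes has a row in the tables. The antisense-named neighbour PRC1-AS1 had a mean count of 922 in the authors' deposited table and fell with SAHA (log2 fold change -0.86, SE 0.29, adjusted p = 0.0454). The use of strand in counting was not given in the sources used here, so the counts of PRC1 and its overlapping genes cannot be told apart. ASPM averaged 251 with a6 and 454 in Ctrl, from the authors' deposited table (log2 fold change -0.85, SE 0.29, adjusted p = 0.218).

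Among 5 chromosome structure genes, MKI67 and NCAPH fell with SAHA (40%, against 3.02% of all genes called lower). MKI67 encodes Ki-67, the coat protein of mitotic chromosomes used as a proliferation marker, and averaged 1119 normalized counts with SAHA and 2740.3 in Ctrl (log2 fold change -1.29, SE 0.40, adjusted p = 0.0233 in the authors' deposited table). NCAPH, a condensin I subunit, averaged 478 with SAHA and 918 in Ctrl, from the authors' deposited table (log2 fold change -0.94, SE 0.31, adjusted p = 0.0396). TOP2A, the topoisomerase that untangles sister DNA, averaged 1115 with SAHA and 2169.7 in Ctrl, from the authors' deposited table, without passing (log2 fold change -0.96, SE 0.42, adjusted p = 0.171). NCAPG, another condensin I subunit, and CDCA2, which targets a phosphatase to chromatin, had log2 fold changes of -0.45 and -0.73 in the authors' deposited table (adjusted p-values 0.660 and 0.367). All 5 estimates were below 0 with a6 as well, between -0.47 and -0.02, and none passed.

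Of 4 cytokinesis genes 2 fell with SAHA (50%, against 3.02% of all genes called lower). IQGAP3, an actin scaffold of proliferating cells, had the smallest adjusted p of the set, at 951 normalized counts with SAHA and 2656 in Ctrl (log2 fold change -1.48, SE 0.26, adjusted p = 1.11e-06 in the authors' deposited table). ANLN (anillin), which organises the contractile ring, averaged 868 with SAHA and 1928 in Ctrl, from the authors' deposited table (log2 fold change -1.15, SE 0.39, adjusted p = 0.0433). ECT2, the exchange factor that activates RhoA, and RACGAP1, a subunit of centralspindlin, had log2 fold changes of -0.97 and -0.45 in the authors' deposited table, without passing (adjusted p-values 0.156 and 0.525). IQGAP3 was at 2219 with compound 1 and 2649 in Ctrl, from the authors' deposited table (log2 fold change -0.26, SE 0.20, adjusted p = 1.00). It was at 2513 with a6 and 2597 in Ctrl, from the authors' deposited table (log2 fold change -0.05, SE 0.22, adjusted p = 0.994).

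Both transcription factors of the set fell with SAHA, where 3.02% of all genes were called lower. FOXM1 averaged 1047 normalized counts with SAHA and 2681 in Ctrl (log2 fold change -1.36, SE 0.27, adjusted p = 3.00e-05 in the authors' deposited table). MYBL2 averaged 1014 with SAHA and 1925 in Ctrl, from the authors' deposited table (log2 fold change -0.92, SE 0.30, adjusted p = 0.0350). FOXM1 averaged 2604 with compound 1 and 2678 in Ctrl, from the authors' deposited table (log2 fold change -0.04, SE 0.23, adjusted p = 1.00). It averaged 2544 with a6 and 2622 in Ctrl, from the authors' deposited table (log2 fold change -0.04, SE 0.22, adjusted p = 0.996). MYBL2 had log2 fold changes of 0.04 with compound 1 and -0.21 with a6 in the same tables, and neither passed. In GENCODE release 29, 15.9% of the exonic bases of FOXM1 overlap ITFG2 on the opposite strand, and ITFG2 also fell with SAHA in the authors' deposited table (log2 fold change -1.11, SE 0.28, adjusted p = 0.00217). Likewise, 12.5% of the exonic bases of PLK1 overlap other genes, among them AC008870.3, which fell in the authors' deposited table (log2 fold change -1.17, SE 0.28, adjusted p = 0.00152). Opposite-strand overlaps larger than that of PLK1 were also annotated for NCAPG (33.1%), PKMYT1 (31.6%), SGO1 (17.7%) and KIFC1 (12.7%). The neighbours ITFG2, AC008870.3 and PRC1-AS1 were named after their values were seen, and values of the other overlapping genes are not given here. Without knowing whether strand was counted, reads of all these genes and their neighbours cannot be told apart where they overlap. Over the 51 genes that share less than 10% of their exonic bases the median SAHA fold change was -0.97.

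**Figure D4:**
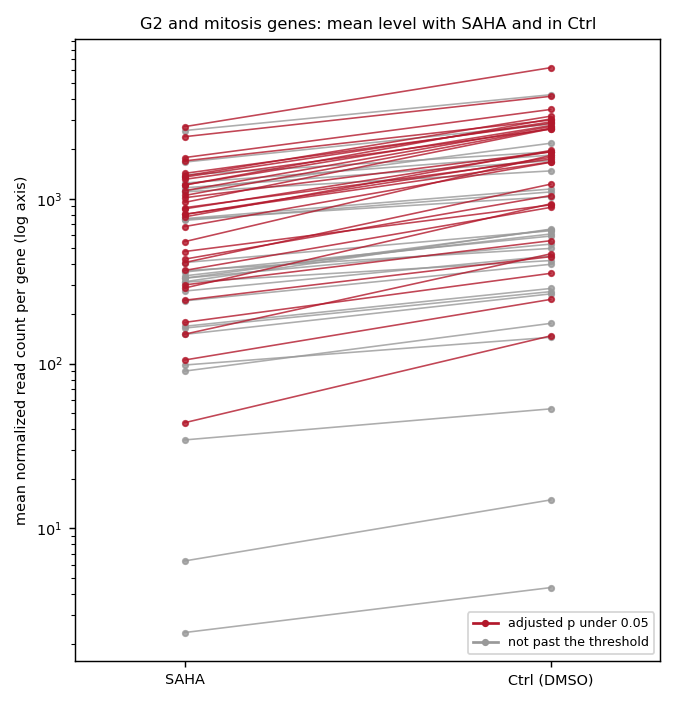
Mean normalized read count of each of the 60 genes (y axis, log scale) with SAHA on the left and in Ctrl on the right, each line joining the group means of 1 gene. Red lines are the 32 genes with an adjusted p under 0.05 and grey lines the other 28; every line is lower on the SAHA side, for genes from under 10 counts to CDC20 at 2738 with SAHA and 6236 in Ctrl.

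Compound 1 moved none of the 60 genes by a detectable amount. The log2 fold changes ran from -0.39 to 0.39, with 32 below 0 and 28 above, and 56 of 60 lay within 0.25 of 0. The ends of that range were NUSAP1 and HMMR, both at mean counts where the SE exceeded 0.5. The comparison had little reach over the genome as well: 0% of the 27126 genes in the authors' deposited table had an adjusted p under 0.05 and 0.199% had an unadjusted p under 0.05, none of them in the set. The deposited Wald statistics had an SD of 0.516, over genes averaging 50 counts or more, with compound 1, against 1.68 with SAHA and 1.11 with a6. With compound 1 the estimates thus spread less than their errors, and the cause was not tested. The intervals and pair tests of compound 1 carry the same errors. At the deposited errors a 2-fold fall lay inside the 95% interval for 5 of the 60 genes with compound 1, and for 12 of 59 with a6. The 13 mitochondrially encoded genes, a sign of library makeup, showed a median of -0.23 (log2 fold change) with compound 1, 0.06 with SAHA and -0.01 with a6; their part in these results was not tested.

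With a6, 39 of 59 genes lay below 0 and 20 above, and 51 lay within 0.5 of 0. In the authors' deposited table, 0.341% of all 15255 genes were called lower and 0.583% in either direction. Unadjusted p-values under 0.05 were found for 4 of the 59 genes (CENPE, CENPF, ASPM and TTK), against 7.41% of all genes in either direction. Counted in either direction, the share in the set was thus not above the background. All 4 lay below 0, and the share of all genes in that direction alone at this p is not given here. The smallest adjusted p was 0.186, for CENPF. Besides these 4, ANLN, KIF11, DLGAP5 and ECT2 had log2 fold changes of -0.60, -0.58, -0.57 and -0.51. The highest estimates were those of CDC25A, at 0.40, and PKMYT1, at 0.38 (adjusted p-values 0.889 and 0.798). All 8 genes below -0.5 have transcripts with a GC content under 42% in GENCODE release 29. The 20 genes of the set under 42% GC had a median of -0.30 with a6, and the 37 others had -0.01, each with a mean count of 50 or more. Over all genes the same split gave -0.09 in 2578 genes and -0.01 in 8989. With SAHA the 20 genes under 42% GC had a median of -0.83 and the 37 others -1.01. The Spearman correlation of fold change and GC content across genes of the set was 0.45 with a6 (57 genes), -0.21 with SAHA (57) and -0.49 with compound 1 (58), against 0.05, -0.24 and -0.40 over all genes. With transcript length it was -0.38 with a6, -0.21 with SAHA and 0.03 with compound 1 in the set. Over all genes the length values were -0.15, -0.01 and 0.18. The points share libraries, and the part of GC content or length in the results was not tested.

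The compounds were compared directly at the matched dose and time, in 3 pairs, by the difference of their deposited fold changes with a two-sided z test adjusted over all genes of a pair. The a6 fold change was higher than that of SAHA in 3 of 59 genes, against 0.059% of all 15255 genes. In IQGAP3 the difference, a6 minus SAHA, was 1.44 (SE 0.34, 95% interval 0.77 to 2.10, adjusted p = 0.0176), computed from the authors' deposited tables. In ESPL1 it was 1.54 (SE 0.37, 95% interval 0.82 to 2.27, adjusted p = 0.0195), from the same deposited tables of the authors. In CDCA8 it was 1.39 (SE 0.35, 95% interval 0.72 to 2.07, adjusted p = 0.0261), again from those tables. These 3 were the only genes of the set past the threshold for this pair, and the median difference over the 59 was 0.80. In CDCA3 and FOXM1 the difference was 1.34 and 1.31 and just missed it (adjusted p = 0.0532 for both). For CENPE and CENPF, the lowest genes with a6, the differences were 0.60 (SE 0.77, 95% interval -0.90 to 2.11, adjusted p = 1.00) and 0.62 (SE 0.54, 95% interval -0.43 to 1.67, adjusted p = 1.00), so a6 and SAHA were not shown to differ there, nor to act alike.

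The compound 1 fold change was higher than that of SAHA in 7 of 60 genes, against 0.481% of all 18514 genes. These were KIF20A, CDCA3, FOXM1, ESPL1, CDCA8, CCNB2 and IQGAP3. The clearest was KIF20A, with a difference, compound 1 minus SAHA, of 1.60 (SE 0.38, 95% interval 0.86 to 2.35, adjusted p = 0.00681), computed from the authors' deposited tables. In FOXM1 it was 1.32 (SE 0.35, 95% interval 0.63 to 2.00, adjusted p = 0.0219), from the same deposited tables of the authors. PLK1 missed the threshold for this pair, with 1.11 (SE 0.32, 95% interval 0.48 to 1.74, adjusted p = 0.0509). The median difference over the 60 genes was 0.97, and 33 had an unadjusted p under 0.05, against 7.26% of all genes. For a6 minus SAHA that count was 28 of 59, against 5.56% of all genes. Both pairs share the SAHA and the Ctrl libraries. With an assumed error correlation of 0.5 from shared Ctrl libraries, 25 genes were higher for a6 minus SAHA, against 1.56% of all genes, and 26 for compound 1 minus SAHA, against 2.7% of all genes.

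**Figure D5:**
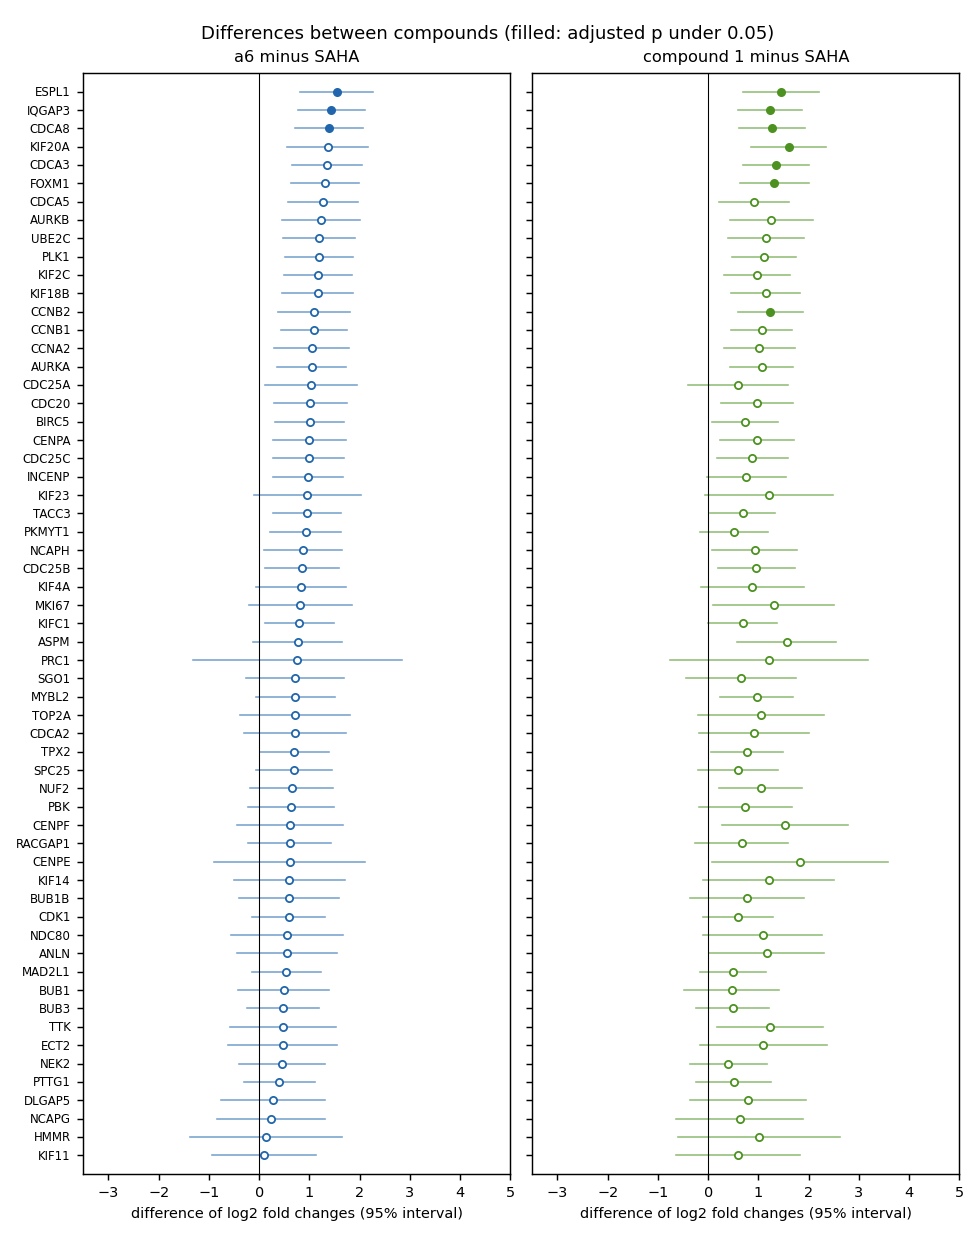
Difference of log2 fold changes (x axis, with 95% intervals) for a6 minus SAHA on the left and compound 1 minus SAHA on the right, in the 59 genes listed for all compounds. Filled points passed an adjusted p of 0.05: 3 genes on the left and 7 on the right, and every estimate lies to the right of 0.

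Between a6 and compound 1 no gene of the set differed by this test, against 5 genes (0.0328%) of all 15251, and 0 of the 59 had an unadjusted p under 0.05, against 1.46% of all genes. The median difference, a6 minus compound 1, was -0.03, and the values ran from -1.22 in CENPE to 0.44 in CDC25A. The intervals bound what could have been seen. For PLK1 the difference was 0.08 (SE 0.30, 95% interval -0.51 to 0.67, adjusted p = 1.00), computed from the authors' deposited tables. For CDK1 it was -0.01 (SE 0.32, 95% interval -0.64 to 0.63, adjusted p = 1.00), from the same deposited tables of the authors. A 2-fold difference was thus outside the interval for these 2 kinases. For CENPE the interval ran from -2.93 to 0.49, so a difference of that size lay inside it. The same held for other genes, among them CENPF (-2.10 to 0.29), TTK (-1.73 to 0.21) and CDC25A (-0.47 to 1.35).

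Other genes of the same processes were measured beside the set. Of 122 other G2 and mitosis genes in 5 lists, 14 fell and 0 rose in the authors' deposited table (11.5%, against 3.02% of all genes lower and 4.53% higher), with a median log2 fold change of -0.54. By list, 4 of 33 other kinetochore and centromere genes fell, 1 of 16 condensin and cohesin genes, 0 of 17 anaphase-promoting complex genes, 7 of 40 other spindle, centrosome and cytokinesis genes and 2 of 16 other entry and exit genes. As shares these were 12.1%, 6.25%, 0%, 17.5% and 12.5%. By calls alone, the condensin and cohesin genes and the anaphase-promoting complex lay within 1 called gene of the share over all genes. The sizes of their estimates were less alike. All 16 condensin and cohesin genes were lower with SAHA, 6 of them at an unadjusted p under 0.05 by the Wald test. The median of these 16, at -0.68, was the lowest among the 5 lists. In the anaphase-promoting complex 13 of 17 genes were lower, and 1 of the 17 had such a p. LMNB1, a subunit of the nuclear lamina, fell in the authors' deposited table (log2 fold change -1.41, SE 0.28, adjusted p = 3.19e-05). GTSE1, a microtubule-binding protein of G2 and mitosis, had the smallest adjusted p of the 7 spindle, centrosome and cytokinesis genes that fell (log2 fold change -1.35, SE 0.29, adjusted p = 0.000222 in the authors' deposited table), followed by TROAP (tastin), a spindle protein (-1.20, SE 0.28, adjusted p = 0.000642). SPAG5 (astrin), also of the spindle, fell in the authors' deposited table (log2 fold change -1.34, SE 0.31, adjusted p = 0.000747). NCAPD2, a subunit of condensin I like NCAPH, fell in the authors' deposited table (log2 fold change -1.06, SE 0.26, adjusted p = 0.00141). CENPM, a protein of the inner kinetochore, fell in the authors' deposited table (log2 fold change -1.08, SE 0.27, adjusted p = 0.00246). The anaphase-promoting complex itself had a median of -0.14, whereas its activator CDC20 and its enzyme UBE2C were both more than 2-fold lower. Of 15 MuvB, DREAM and NF-Y subunits 1 fell, TFDP1 (log2 fold change -0.80, SE 0.27, adjusted p = 0.0434 in the authors' deposited table), and the median was -0.31; 1 of 15 is 6.67%, likewise 1 called gene from the share over all genes. With compound 1 and a6, 0 genes of these lists passed in either direction.

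Of 42 S phase genes 6 fell with SAHA and 0 rose in the authors' deposited table (14.3%, against 3.02% of all genes lower), with a median log2 fold change of -0.55. TYMS, the thymidylate synthase, fell in the authors' deposited table (log2 fold change -1.41, SE 0.25, adjusted p = 2.23e-06). CDC45, a part of the replicative helicase, fell in the authors' deposited table (log2 fold change -1.07, SE 0.29, adjusted p = 0.00644), and so did CDCA7, a partner of the chromatin remodeller HELLS (-1.16, SE 0.32, adjusted p = 0.00698). RRM2, a subunit of ribonucleotide reductase, fell in the authors' deposited table (log2 fold change -0.96, SE 0.28, adjusted p = 0.0110). The S phase estimates were below 0 in 40 of 42 genes, against 50.7% of all genes in the table and 55.6% of the other genes averaging 50 counts or more. Of 7 CDK inhibitors 5 were listed, and CDKN1A (p21), which halts the cycle and brings DREAM to its targets, was the 1 that rose, where 4.53% of all genes did (log2 fold change 1.26, SE 0.34, adjusted p = 0.00666 in the authors' deposited table). With a6, CDKN1A did not pass in the authors' deposited table (log2 fold change 0.74, SE 0.30, adjusted p = 0.436), and neither did CDKN1C (p57), which lay the other way (-1.04, SE 0.47, adjusted p = 0.555). These were the 2 of the 5 with an unadjusted p under 0.05 with a6, and CDKN1B, CDKN2C and CDKN2D had log2 fold changes of 0.04, 0.30 and -0.07. With compound 1 CDKN1A did not pass in the authors' deposited table (log2 fold change 0.29, SE 0.50, adjusted p = 1.00), and the other 4 lay between -0.12 and 0.03. CDKN1B, CDKN1C, CDKN2C and CDKN2D had log2 fold changes of -0.33, -0.94, -0.43 and -0.38 with SAHA in the authors' deposited table, without passing.

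The authors also deposited lists of changed genes, selected at an unadjusted p under 0.05 and a 2-fold change, and lists of G-quadruplex-related genes with a number of G-quadruplexes for each. Of the 60 genes, 24 stood in the SAHA list of lowered genes, against 3.29% of all genes in the table, 2 (CENPE and CENPF) in that of a6, against 1.63%, and 0 in that of compound 1, against 0.0737%. Of the 24, 9 were also in the SAHA list of lowered G-quadruplex-related genes, which is 37.5% of the 24 and 2.05% of the 440 genes in that list. Over the whole list of 609 lowered genes the share was 47.9%. The 9 were FOXM1 with 10 listed G-quadruplexes, CDCA5 with 9, CDCA3 with 7, CDC25B and CENPE with 3 each, CCNA2, KIF18B and MKI67 with 2 each, and TTK with 1. For a6, CENPE and TACC3 stood in the list of lowered G-quadruplex-related genes, although TACC3 had a log2 fold change of 0.14 in the authors' deposited table and is not in the list of changed genes. CDCA2 stood in the SAHA list of raised G-quadruplex-related genes, although its log2 fold change there was -0.73. The region searched for G-quadruplexes was not given in the sources used here, and the numbers are printed as the authors deposited them.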

How the data were processed

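RNA-seq was carried out on 12 libraries of MDA-MB-231 cells in 4 groups of 3. The authors deposited 1 table per compound against Ctrl. Its first value is, per the file headers, the mean normalized count of each gene, a signal averaged over the libraries compared with no count per library. The log2 fold change and its standard error were fitted by the authors with DESeq2. The Wald statistic, a score, was deposited beside them by the authors. The deposited p-value is that of the Wald test, and the adjusted p-values equalled Benjamini-Hochberg values over each table. The authors also deposited lists of changed genes and of G-quadruplex-related genes. Per the submitters' processing notes, cutadapt, DESeq2 and GRCh38 (hg38) were used; aligner, counter, versions and strand use were not given in the sources used here.

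Group levels were computed by splitting the mean count between 2 groups of equal size according to the fold change. The main result was the call of the authors' Wald test below 0.05 after adjustment. Compounds were compared by a two-sided z test of the difference of log2 fold changes, with errors treated as independent and p-values adjusted over all genes of a pair; this script was tested on simulated data. The tables used held 0 columns of single samples. GC content, transcript length and exon overlap came from GENCODE release 29, promoters and motifs from RefSeq's table (GRCh38.p14). Named genes were the 60 of the set, up to 6 called genes of each other list, taken from the smallest adjusted p upward, the cell type markers and all CDK inhibitors. The result of 1 marker of the line is not reported here. ITFG2, PRC1-AS1 and AC008870.3 were named after their values were seen. The genes of the set and the other lists were chosen with earlier results of these data known. Alternatives were a 2-fold limit, a stricter p, the authors' list criterion, a count minimum of 50, centring, removal of a GC trend and, for differences, correlated errors and adjustment over pairs. Dividing the statistic by its own spread and leaving out genes with shared exons were added after seeing the data. Work was done in Python 3.11.15 with pandas 2.3.3, scipy 1.17.1 and statsmodels 0.14.6.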

Additional observations from a re-analysis of the deposited data

How the results depend on the processing

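Genes of the set that fell with SAHA numbered 32 as deposited (3.02% of all genes lower). With a 2-fold limit they numbered 23 (2.10% of all genes lower), and by the authors' list criterion 24 (3.29%). They numbered 32 at a mean count of at least 50 (4.30% of 12123 genes), 25 after centring on the median (2.49%) and 28 after removing the GC trend (2.00%). At an adjusted p under 0.01 they numbered 19 (1.63%). Centring ended the calls of TTK, NUF2, KIFC1, TACC3, NCAPH, ANLN and MYBL2, and the GC trend those of INCENP, KIFC1, TACC3 and MYBL2. Dividing the Wald statistic by its own SD of 1.68, a choice made after seeing the data that takes in the genes SAHA changed, left 0 of the 32, 14 lower genes in the whole table and 65 higher. Over all genes the share of SAHA calls that were higher was 59.97% as deposited, 46.1% at a mean count of at least 50, 67.6% centred and 70.1% with the GC trend removed. With a6, 2 genes passed the authors' list criterion (1.63% of all genes lower) and 0 the other settings, and with compound 1 none passed any. The SAHA median stayed between -0.98 and -0.90. For a6 minus SAHA the count of 3 (0.059% of all genes higher) became 25 with an assumed error correlation of 0.5 from shared Ctrl libraries (1.56%), 5 when adjusted over 3 pairs (0.0852%) and 0 at an adjusted p under 0.01 (0.0131%). For compound 1 minus SAHA the count of 7 (0.481%) became 26 with that correlation (2.7%) and 1 at 0.01 (0.178%).

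No paired analysis was possible because the tables give no values of single libraries. For the same reason leaving out a replicate, a replicate block and another normalization were not run, so the weight of any 1 library is not known here. Low counts limit the 3 genes below a mean count of 50 with SAHA, NUSAP1, PRC1 and HMMR, whose SE was 0.57 to 1.53. The parts of depth and of shared exons in these low counts were not tested.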
